A study of Sus scrofa with 21 samples.

Results

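MHC class II molecules are heterodimers of an alpha and a beta chain that B cells, monocytes, macrophages and dendritic cells use to show peptides to CD4+ T cells. In the pig the MHC is called SLA (swine leukocyte antigen), and 46 of the 60305 non-control probes of the array named one of 10 genes of this system in their symbol or description. They were the classical chains SLA-DRA, SLA-DRB1, SLA-DQA1 and SLA-DQB1, the loading factors SLA-DMA and SLA-DMB, their modulators SLA-DOA and SLA-DOB, the invariant chain CD74 and the transcriptional coactivator CIITA. Whole blood RNA was compared between 10 DD pigs, born to 5 sows, and 11 LW pigs, born to 6 sows, all 60 days old. The DD pigs came from an inbred minipig line that carries the SLA haplotype d on both chromosomes, and the LW pigs were Large White, a commercial breed whose SLA genotypes were not used here. Both breeds were fed a standard diet without restriction at the same farm, and siblings from one sow are not independent animals. There were 10 probes for SLA-DRA, 10 for SLA-DQA1, 6 for SLA-DQB1, 5 for SLA-DRB1, 4 for SLA-DOB, 4 for CD74, 2 each for SLA-DMA, SLA-DMB and SLA-DOA, and 1 for CIITA. Each was read as the log2 of its quantile-normalized intensity, and is numbered here within its gene (SLA-DRA-p1 to SLA-DRA-p10, first the probes designed on a named SLA record in the order of their start). Of the 46 probes, 37 carried the symbol of the gene, 3 that of its human counterpart, and 6 were named by their description alone.

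The alpha chain of DR hardly varies within a species, whereas the beta chain of DR and both chains of DQ are among the most polymorphic proteins known. CD74 holds the groove closed until the molecule reaches the endosome, where SLA-DM exchanges the remaining CD74 fragment for peptide and SLA-DO restrains SLA-DM. CIITA does not bind DNA itself but is recruited to the promoters of these genes by the RFX, CREB and NF-Y factors. In Sscrofa11.1 the RefSeq annotation places the 8 SLA genes on chromosome 7, from SLA-DRA (24825037 to 24830650), SLA-DRB1 (24901386 to 24914016), SLA-DQA1 (24953472 to 24959313) and SLA-DQB1 (24969034 to 24977238) to SLA-DOB (25030435 to 25038196), SLA-DMB (25119278 to 25125089), SLA-DMA (25133494 to 25137928) and SLA-DOA (25178866 to 25182665). CD74 lies on chromosome 2 (151402210 to 151409924) and CIITA on chromosome 3 (32171706 to 32230775). The exon under each probe was not analysed here.

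Alleles can differ under a probe, so the 60-base probe sequences are shown where a result turns on them. The first pair covers the same stretch of SLA-DQA1 shifted by 1 base and differs at 5 bases (T4A, C7A, C18G, A41C and A54C, counted from the 5′ end of SLA-DQA1-p1), which are in capitals.
SLA-DQA1-p1: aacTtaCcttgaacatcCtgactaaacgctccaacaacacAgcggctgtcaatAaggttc
SLA-DQA1-p2: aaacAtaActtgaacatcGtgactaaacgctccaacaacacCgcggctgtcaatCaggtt
The next 4 are the most upstream probes of genes in which the spread between pigs went with the position along the transcript.
SLA-DRA-p1: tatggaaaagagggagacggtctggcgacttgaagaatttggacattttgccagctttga
SLA-DRB1-p1: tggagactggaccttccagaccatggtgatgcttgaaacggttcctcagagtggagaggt
SLA-DMA-p1: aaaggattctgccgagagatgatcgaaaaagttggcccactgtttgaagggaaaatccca
SLA-DMB-p1: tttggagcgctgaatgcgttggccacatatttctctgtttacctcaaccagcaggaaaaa
The last pair are the probe of CIITA, which passed the test between breeds, named by its description alone, and a CD74 probe that the text follows.
CIITA-p1: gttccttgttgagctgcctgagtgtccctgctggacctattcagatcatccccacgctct
CD74-p2: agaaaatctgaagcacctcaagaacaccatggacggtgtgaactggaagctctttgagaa
SLA-DQB1-p3 and SLA-DQB1-p4 adjoin each other and share only 17 bases, caacagactgtgcaaga, at the end of the former and the start of the latter.

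The 21 arrays lay on 3 chips, of which chip 1 held 3 DD and 4 LW pigs, chip 2 held 4 of either breed and chip 3 held 3 of either breed. The paper reports a technical bias of the third chip, found in its quality assessment, and entered the chip as a fixed effect. The DD arrays were dimmer, with a brightness, taken as the processed signal at the 75th percentile of an array on the log2 scale, from 6.56 to 8.49 (median 7.64) against 7.37 to 8.62 (median 8.41) in LW pigs. The gap between breeds was widest on chip 3, where the mean brightness was 7.09 in DD and 8.36 in LW arrays. A further property set some arrays apart in these genes. In SLA-DRA, SLA-DRB1, SLA-DQA1, SLA-DMA and SLA-DMB the probe with the lowest start was compared on each array with the probe with the highest start, both taken from the transcript record that most probes of the gene were designed on. The difference of the pair, averaged over the 5 genes, lay between −4.31 and −2.60 on 9 LW arrays and between −4.04 and −2.86 on 8 DD arrays. It was below −5 on the other 4 arrays, namely DD_13 (−5.01), DD_16 (−5.78), LW_18 (−5.47) and LW_22 (−5.82), the former pair on chip 2 and the latter on chip 3. On all 7 arrays of chip 1 it was −3.13 or higher. The count of calls, and the values of the probes called, are therefore also given without these 4 arrays, a choice made after their values were seen.

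Most class II probes showed no difference between the breeds beyond the spread between pigs. In limma, 2 of the 45 probes tested passed the threshold of 0.05 on the adjusted p (4.44%), where 21.7% of all 45228 probes tested did. CIITA-p1 was higher in DD pigs, as were 11% of all probes, and SLA-DQB1-p4 was lower, as were 10.7% of them. An unadjusted p below 0.05 in limma was found for 3 of the 45 member probes, beside 16799 of all 45228. The median difference of the 45 probes was −0.0036 on the log2 scale, with 22 above and 23 below 0, and the median over all probes tested was −0.07. Without regard to sign, the median size was 0.13 against 0.24 over all probes. When each array was scaled to its 75th percentile in place of quantile normalization, 35 of the 45 differences were above 0. Their median was then 0.12, beside 0.03 over all probes tested. Of all calls, 66.9% were of higher values in DD pigs in place of 50.5%. In whole blood, fewer cells of a type and less RNA per cell cannot be told apart. With the array brightness as a covariate, 0 of 45 member probes and 2.31% of all probes passed the threshold in limma. In that fit 6 of 45 member probes had an unadjusted p below 0.05, beside 5493 of all 45228. Of the 45 member differences, 38 were above 0. Their median was 0.25 with this covariate, beside 0.0017 over all probes tested. Without the 4 arrays with low upstream signal, 0 of 45 member probes and 2.71% of all probes passed the threshold.

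**Figure D1:**
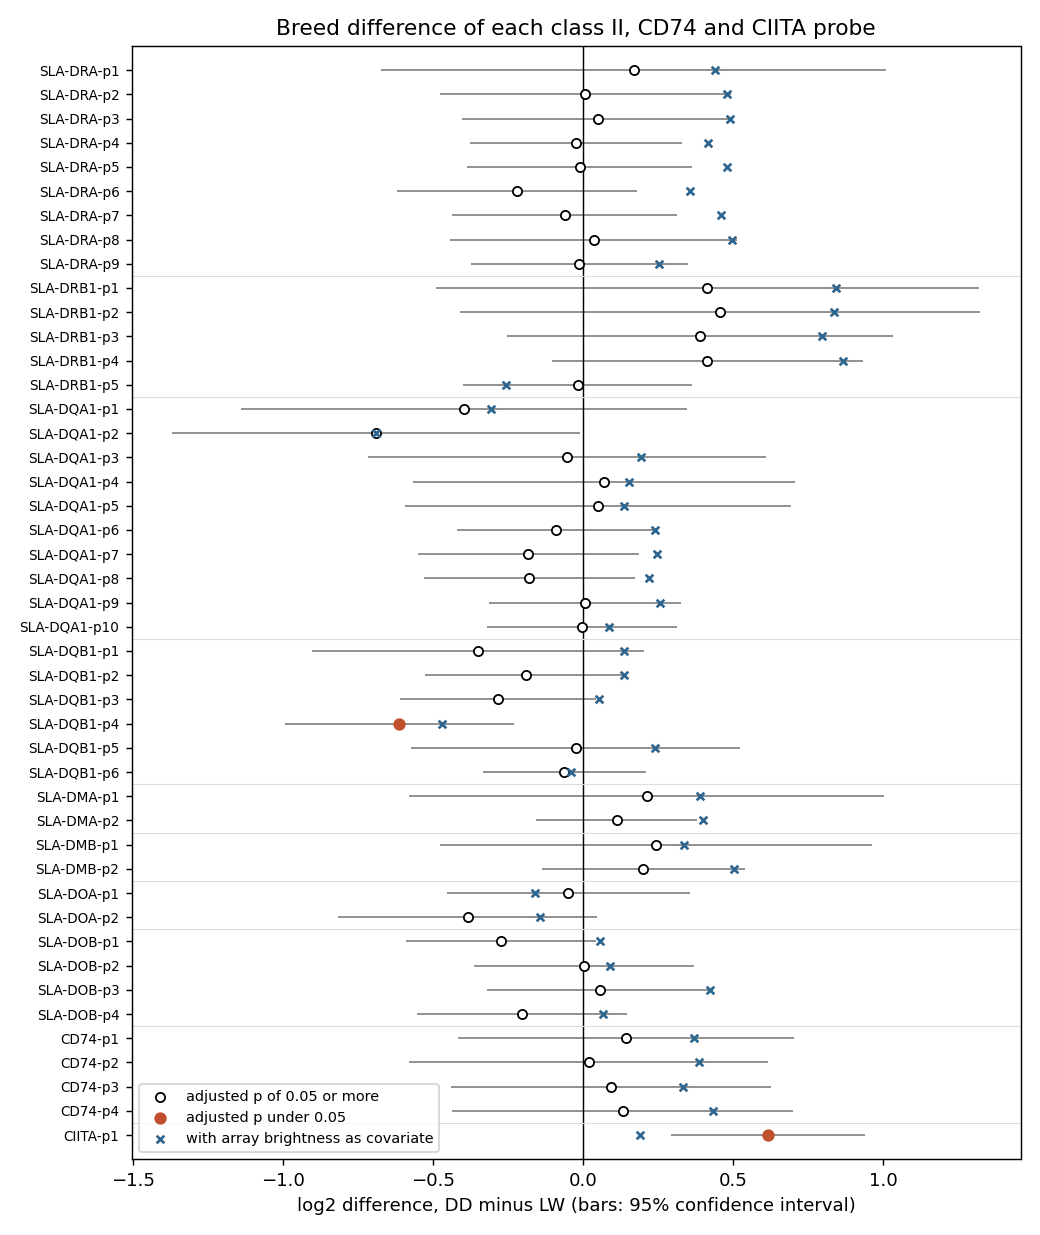
Log2 difference between breeds (DD minus LW) of the 45 probes tested, with the 95% confidence interval of the limma model as bars, filled circles for an adjusted p below 0.05 and crosses for the difference with array brightness as a covariate. All intervals except those of SLA-DQA1-p2, SLA-DQB1-p4 and CIITA-p1 include 0, and the crosses of SLA-DRA and SLA-DRB1 lie to the right of most circles.

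No difference was detected in SLA-DRA, the nearly invariant alpha chain. Its most downstream probe, SLA-DRA-p7, was at 14.35 (median of DD pigs, from 12.95 to 15.14) and 14.35 (LW pigs, from 13.50 to 15.06). DD_21, the dimmest array, was below all LW pigs and DD_13 above them all, and the other DD pigs lay within the LW range. The difference was −0.06 (SE 0.18, 95% confidence interval −0.44 to 0.31), and the differences of all 9 tested SLA-DRA probes lay between −0.22 and 0.17 (limma adjusted p from 0.424 to 0.984). With array brightness as a covariate the 9 differences turned to 0.25 to 0.50, none of them past the threshold. SLA-DRA-p9, which was named by its description alone, varied little among LW pigs (SD 0.23) and more among DD pigs (SD 0.61), with DD_21 at 5.57 and DD_10 at 7.73 outside the LW range. The last probe, SLA-DRA-p10, was well above background on 0 DD arrays and 1 LW array and was removed as dim.

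SLA-DRB1, the main beta chain that pairs with SLA-DRA, had higher DD means in 4 probes without passing the test. SLA-DRB1-p4 ranged from 12.54 to 14.49 in DD pigs (median 14.01) and from 11.75 to 14.64 in LW pigs (median 13.28). The LW values thus spanned the whole DD range, and the lowest was that of LW_15. Its difference of 0.41 (SE 0.25, limma adjusted p = 0.233) was made up of 0.48, 0.58 and 0.14 on chips 1, 2 and 3. This probe passed the threshold when each array was scaled to its 75th percentile. SLA-DRB1-p1, p2 and p3 differed by 0.39 to 0.46, and without the 4 arrays with low upstream signal the 4 differences were 0.50 to 0.64. The fifth probe, SLA-DRB1-p5, was flagged well above background on 2 LW arrays and on 0 DD arrays, and its values near 4.36 and 4.37 carry no comparison.

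**Figure D2:**
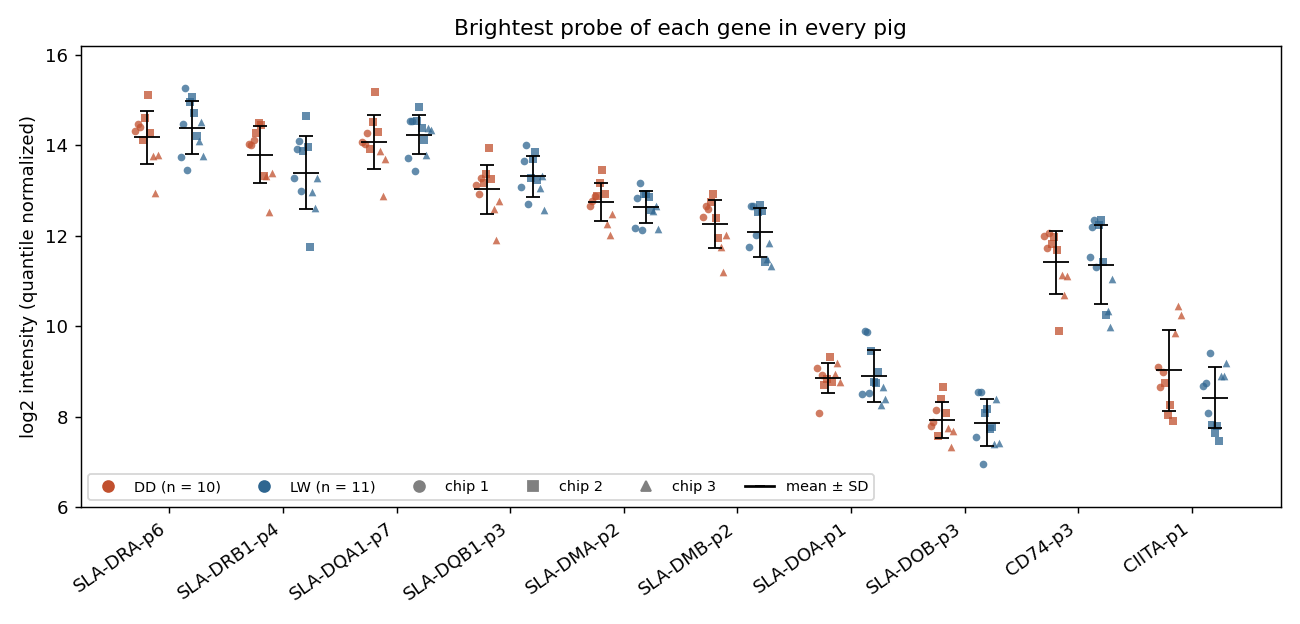
Log2 intensity of the probe with the highest mean of each of the 10 genes in every pig, with DD pigs to the left, LW pigs to the right, the chip as the symbol, and the mean ± SD of each breed in black. The breeds overlap in every gene. CIITA-p1 is the only one of these 10 probes past the threshold, and its 3 highest values are the DD pigs of chip 3.

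SLA-DQA1, the DQ alpha chain, had its largest differences, none of them past the threshold, at the upstream end. SLA-DQA1-p3 to SLA-DQA1-p9, which lie further downstream, differed by −0.18 to 0.07. SLA-DQA1-p2 ranged from 6.67 to 9.43 in DD pigs (median 8.45) and from 6.16 to 10.84 in LW pigs (median 9.14). The LW pigs LW_04 (10.84), LW_14 (10.44), LW_02 (10.08) and LW_07 (9.84), each from a different litter, lay above all 10 DD pigs. In these 4 the SLA-DQA1-p2 value minus that of the downstream SLA-DQA1-p8 was between −3.74 and −3.29, while it was −4.78 or lower in every DD pig and lower than −4.78 in the other 7 LW pigs. The difference was −0.69 (SE 0.33, unadjusted p = 0.0474, limma adjusted p = 0.13), and by chip it was −1.02, −1.03 and 0.14. Set against the mean of the gene's other probes, SLA-DQA1-p2 had a difference of −0.60 between breeds (SE 0.24, limma adjusted p = 0.126), which did not pass the threshold either. Without the 4 arrays with low upstream signal the difference of SLA-DQA1-p2 itself was −0.61 (limma adjusted p = 0.315). SLA-DQA1-p10, named by the human symbol, was well above background on 1 DD and 1 LW array only.

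SLA-DQA1-p2 and SLA-DQA1-p1 read nearly the same bases, and their difference within an array removes what both share. The array describes the record of SLA-DQA1-p1 as the SLA-DQA*gz allele, and SLA-DQA1-p2 was designed on another record, described without an allele name. It ranged from 0.15 to 0.83 in the 11 LW pigs (median 0.58), all of them above 0. In DD pigs it was between 0.10 and 0.75 in 9 animals. In DD_01 it was −1.20, since this pig had the highest SLA-DQA1-p1 value of all 21 (10.27) and an SLA-DQA1-p2 value of 9.07 within the DD range. Its sibling DD_10 had 0.45. DD_01 was the single animal of 21 in which the difference was below 0.

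**Figure D3:**
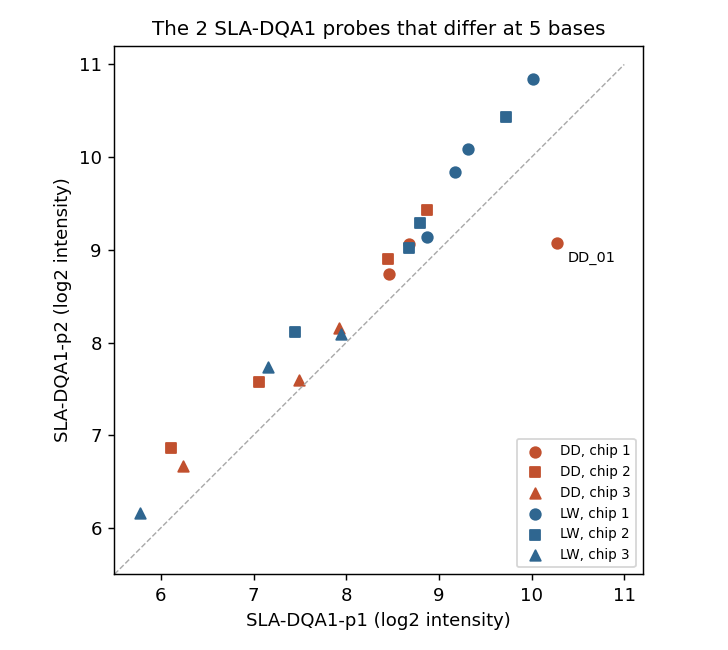
Log2 intensity of SLA-DQA1-p1 (horizontal) and SLA-DQA1-p2 (vertical) in each pig, by breed and chip, with a dashed line where both are equal. All pigs lie on the SLA-DQA1-p2 side of the line except DD_01, at 10.27 and 9.07.

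SLA-DQB1, the DQ beta chain, held the one class II chain probe that passed the test. SLA-DQB1-p4 ranged from 10.66 to 12.41 in DD pigs (median 11.67) and from 11.31 to 13.03 in LW pigs (median 12.17). Only DD_21 lay below all LW pigs, and no DD pig lay above them all. DD pigs were lower by 0.61 on the log2 scale (SE 0.18, 95% confidence interval of the difference −0.99 to −0.23, limma adjusted p = 0.0263), which is 0.654 times the LW intensity. The direction was the same on each chip, with −0.79, −0.39 and −0.69. The threshold was missed without DD_21 (−0.54, limma adjusted p = 0.0579), without LW_22 (−0.50, limma adjusted p = 0.0522), with array brightness as a covariate (−0.47, limma adjusted p = 0.476), and without the 4 arrays with low upstream signal (−0.57, limma adjusted p = 0.175). The neighbouring SLA-DQB1-p3 differed by −0.28 (SE 0.16, limma adjusted p = 0.195) and SLA-DQB1-p2, further upstream, by −0.19. Against the mean of the gene's other probes, SLA-DQB1-p4 was lower by 0.43 (SE 0.20, limma adjusted p = 0.205), so that a departure from them was not shown. All 6 SLA-DQB1 differences were below 0, and 4 of them were above 0 with array brightness as a covariate. SLA-DQB1-p6 was flagged well above background on 1 LW array and 0 DD arrays.

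The loading factors SLA-DMA and SLA-DMB, which form the heterodimer that edits the bound peptide, showed no detectable difference between breeds. SLA-DMA-p2 ranged from 12.01 to 13.47 in DD pigs (median 12.83) and from 12.14 to 13.17 in LW pigs (median 12.67). It was one of the steadiest members, and its difference of 0.11 (SE 0.13) had a 95% confidence interval of −0.16 to 0.38. SLA-DMB-p2 ranged from 11.19 to 12.93 and from 11.32 to 12.68, and differed by 0.20 (SE 0.16, limma adjusted p = 0.381). The upstream probes of the same genes, SLA-DMA-p1 and SLA-DMB-p1, differed by 0.21 (SE 0.38) and 0.24 (SE 0.35).

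SLA-DOA and SLA-DOB encode the chains of SLA-DO, which is best known from B cells. The probes SLA-DOA-p1 and SLA-DOA-p2 share 46 bases without a difference, and were compared with each other within each array. SLA-DOA-p1 ranged from 8.08 to 9.32 in DD pigs (median 8.87) and from 8.25 to 9.88 in LW pigs (median 8.73), a difference of −0.05 (SE 0.20). SLA-DOA-p2 ranged from 7.97 to 9.27 (median 8.64) and from 8.06 to 10.15 (median 8.97), a difference of −0.38 (SE 0.21). The gap of 0.34 between the pair (SE 0.12) had an unadjusted p of 0.0111 and a limma adjusted p of 0.0917, the smallest among the 44 member probes that could be set against others of their gene. None of the 44 passed the threshold, with or without the 4 arrays with low upstream signal, and 6.9% of the 14585 probes tested this way passed it. An unadjusted p below 0.05 was found for 5 of the 44 (2 without the 4 arrays), beside 3433 of the 14585 in the main fit. In a gene with 2 probes the value of 1 is that of the other with its sign turned. The single SLA-DOA gap is therefore counted as 2 probes. Without chip 1 the gap was 0.48 (limma adjusted p = 0.0373) and without LW_07 it was 0.40 (limma adjusted p = 0.0237), both past the threshold, as was the value without DD_06 (0.39, limma adjusted p = 0.0406). Of the SLA-DOB probes, only SLA-DOB-p3 was well above background on all 21 arrays. SLA-DOB-p3 ranged from 7.33 to 8.66 in DD pigs and from 6.95 to 8.54 in LW pigs, with a difference of 0.06 (SE 0.18).

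The invariant chain CD74 showed no detectable difference between breeds in any of its 4 probes. CD74-p2 ranged from 9.52 to 11.97 in DD pigs (median 11.61) and from 9.64 to 12.34 in LW pigs (median 11.26), with DD_16 and LW_22 lowest in their breeds. The 4 differences lay between 0.02 and 0.14 with standard errors of 0.26 to 0.29, and their confidence intervals together reached from −0.58 to 0.70. By chip the difference of CD74-p2 was 0.11, −0.27 and 0.32. The spread of CD74-p2 within a breed, with an SD of 0.87 in 10 DD and 1.00 in 11 LW pigs, was larger than the difference between the breeds.

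CIITA, the coactivator without which class II genes are not transcribed in B cells and dendritic cells, had 1 probe, named as CIITA by its description alone, and its match to the CIITA transcript was not checked here. This probe had the lowest adjusted p of the 45. CIITA-p1 ranged from 7.90 to 10.44 in DD pigs (median 8.86) and from 7.47 to 9.40 in LW pigs (median 8.67). The 3 DD pigs above all LW pigs were DD_21 (10.44), DD_23 (10.25) and DD_19 (9.85), which are the DD pigs of chip 3, and the other 7 lay within the LW range. DD pigs were higher by 0.62 (SE 0.16, 95% confidence interval 0.30 to 0.94, limma adjusted p = 0.0125), or 1.53-fold. Chip 1 gave a difference of 0.19, chip 2 of 0.56 and chip 3 of 1.18, the order in which the gap in brightness between breeds also widened. After removal of breed and chip means, CIITA-p1 had a Pearson correlation of −0.78 with array brightness over the 21 arrays, given as a description. With brightness as a covariate the difference was 0.19 (SE 0.14, limma adjusted p = 0.76). Without chip 3 it was 0.36 (limma adjusted p = 0.462), and without the 4 arrays with low upstream signal 0.52 (limma adjusted p = 0.172). The part of brightness in this difference was not tested beyond these values, and the gene had no other probe to set it against.

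**Figure D4:**
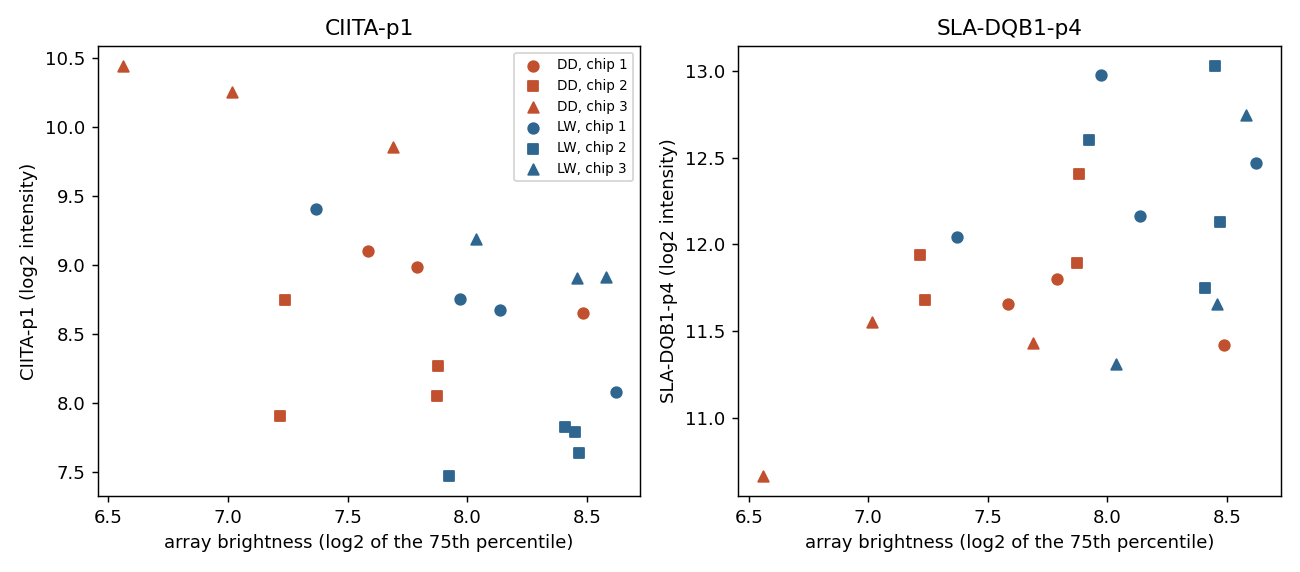
Log2 intensity of CIITA-p1 (left) and SLA-DQB1-p4 (right) against array brightness (log2) in each pig by breed and chip. CIITA-p1 is highest on the dim DD arrays of chip 3, where DD_21 reads 10.44, and SLA-DQB1-p4 is lowest in the same DD_21 at 10.66.

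In some class II genes, where a probe lay along its transcript record went with how far pigs of one breed differed. Among the probes of SLA-DRA, SLA-DRB1, SLA-DQA1, SLA-DQB1, SLA-DMA and SLA-DMB designed on a record of the gene, the 11 that start before base 700 had an SD between pigs of 0.71 to 1.18 (median 0.94) after removal of breed and chip means. The 17 that start at base 700 or later had 0.31 to 0.83 (median 0.45). The same gene could hold both, as SLA-DMA-p1 at 1.03 and SLA-DMA-p2 at 0.31 show. On the arrays this appeared as low values of the upstream probes of several genes at once. The difference between the most upstream and the most downstream probe was −6.87 in LW_22, −6.58 in LW_18, −6.41 in DD_16 and −5.87 in DD_13 for SLA-DRA, where the median was −3.87 in DD pigs and −3.51 in LW pigs. For SLA-DMA the lowest values were those of LW_22 (−6.17) and DD_16 (−6.03), beside medians of −2.78 and −3.06. Over the 21 arrays, with breed and chip means removed, these differences correlated between the 5 genes with Pearson's r from 0.68 to 0.98, which is a description over arrays shared by all of them. The pair of SLA-DQB1, which was not in the mean, had an r of 0.36 with SLA-DQA1 and 0.78 to 0.85 with the other 4. The pair of SLA-DOB had an r of −0.51 to −0.38 with the 5 genes and that of CD74 0.16 to 0.46. The mean difference of the 5 genes had an r of −0.16 with array brightness. Both breeds held such arrays, and the means of the difference were −3.46 ± 1.23 (SD) in the 10 DD pigs, beside −3.47 ± 1.31 (SD) in the 11 LW pigs, for SLA-DMA. The probe pairs of CD74 and SLA-DOB varied by less, with an SD of 0.20 and 0.36 among DD pigs. The CD74 pair starts at bases 79 and 434, both before base 700, so it cannot show a gap across that base. The SD between pigs of these CD74 probes was 0.71 and 0.76. The SLA-DOB pair starts at bases 199 and 700. In SLA-DOB the SD between pigs was 0.38 at SLA-DOB-p1, 0.44 at SLA-DOB-p2 and 0.46 at SLA-DOB-p3. SLA-DOB-p1 was well above background on only 4 DD and 7 LW arrays, and SLA-DOB-p2 on 8 DD and 11 LW arrays. SLA-DOB-p3 was designed on another record, so no order by position is read from these values. Upstream probes could also be dimmer, as SLA-DMA-p1 (mean 9.22) beside SLA-DMA-p2 (12.69), and the part of intensity in the spread was not tested. The RNA integrity of each sample was not analysed here, and its part in this pattern was not tested.

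**Figure D5:**
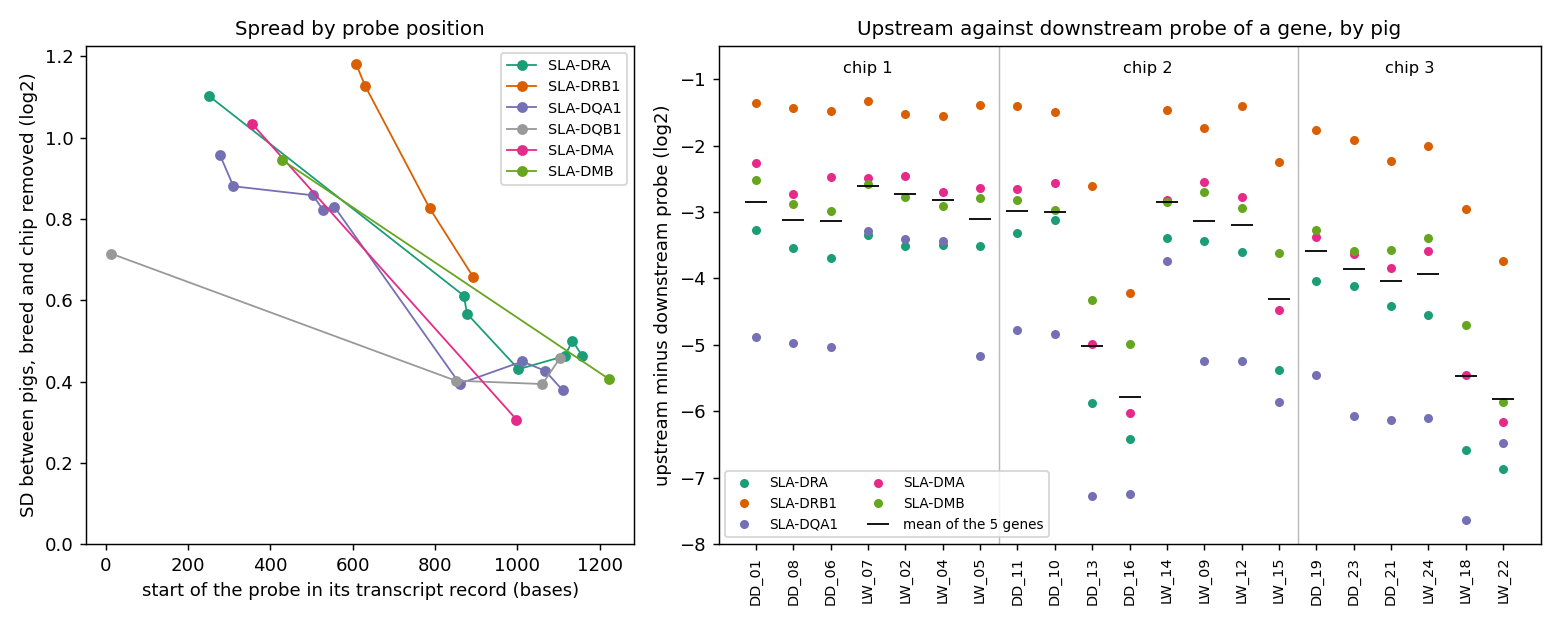
Left, SD between pigs of each probe (log2, breed and chip means removed) against the start of the probe in its transcript record for 6 class II genes. Right, log2 difference between the most upstream and the most downstream probe of 5 genes on each array, ordered by chip and breed, with the mean of the 5 genes as a black bar, which lies lowest in LW_22 at −5.82.

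The DD pigs carry a single SLA haplotype and the LW pigs were not inbred, so the spread within breeds was compared probe by probe. The measure was the mean absolute residual of the pigs of a breed, scaled for leverage, after breed and chip were fitted. It was smaller in DD than in LW pigs in 37 of 45 member probes, with a median difference of −0.10, while the median over all 45228 probes was 0.04. None of the 45 passed the threshold in limma, and 0.0332% of all probes did. An unadjusted p below 0.05 was found for none of the 45, beside 3376 of all 45228 probes. Without the 4 arrays with low upstream signal 13 of the 45 had an unadjusted p below 0.05, and without chip 2 or without DD_16 there were 9, again with 0 past the threshold. For these fits the share of all probes with an unadjusted p below 0.05 is not given, so no conclusion is drawn from the counts. The widest gaps of this sign were in SLA-DRB1-p3, with 0.45 in DD and 0.75 in LW pigs (limma adjusted p = 0.805), in SLA-DRB1-p4, with 0.32 and 0.61 (limma adjusted p = 0.754), and in SLA-DOA-p2, with 0.29 and 0.52 (limma adjusted p = 0.706). SLA-DQA1-p1, the probe that was high in DD_01, had the opposite order, with 0.96 and 0.69 (limma adjusted p = 0.812).

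The gene names whose probes followed CD74 most closely across pigs were ranked by Pearson's r with the mean of the CD74 probes over the 21 arrays, after removal of breed and chip means. They were CD79A (r = 0.99), LY86 (0.96), TFEB (0.95), PI4K2A (0.95), IGLL1 (0.94), PCIF1 (0.94), HEATR7A (0.94), FCRLA (0.93), ARHGAP4 (0.93) and PTPN6 (0.93). Each name stands for its probe with the highest r, and the names were not sorted by cell type. CD79A is a signalling subunit of the B cell receptor, LY86 a partner of the CD180 receptor, and FCRLA an intracellular protein of B cells. The FCRLA probe was dim, with a mean of 5.72 in DD and 5.63 in LW pigs, and well above background on 7 DD and 8 LW arrays. Over all tested probes the 99th percentile of this r was 0.86. Without the 4 arrays with low upstream signal, the 10 values ranged from 0.88 to 0.99. Among the SLA-DRA, SLA-DRB1, SLA-DQA1, SLA-DQB1, SLA-DMA and SLA-DMB probes designed on a record of the gene, 11 start before base 700. These had an r with CD74 of 0.56 to 0.94, and the 17 that start later had −0.20 to 0.90. Class II chain probes named by description alone that start before base 700 were lower. They were SLA-DQB1-p6 (−0.51), SLA-DRB1-p5 (−0.35) and SLA-DOB-p4 (0.14). In this order they were well above background on 0, 0 and 1 DD arrays and on 1, 2 and 4 LW arrays. Their r with CD74 therefore carries no comparison. SLA-DRB1-p1 (0.94) and SLA-DRA-p1 (0.90) were close to CD74, whereas the most downstream SLA-DRA probe (0.42) and SLA-DQB1-p4 (−0.20) were not, and CIITA-p1 was at 0.17. As the mean of its probes, CD74 was lowest on DD_16 (9.10), LW_22 (9.24), LW_15 (9.53), LW_18 (9.57) and DD_21 (9.82). DD_16, LW_22 and LW_18 are arrays with low upstream signal, whereas DD_13, the other of them, was at 11.02. The part of those arrays in the upstream correlations was not tested.

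The factors that assemble on class II promoters were mostly within the spread between pigs. Of 68 probes for 21 regulators, DD pigs were higher in 3 and lower in 4 (10.3%, beside 21.7% of all probes), and the median difference was −0.03. In DD pigs RFXANK, a subunit of the RFX complex, exceeded LW by 0.83 (SE 0.25, limma adjusted p = 0.0274), RFX5, its DNA-binding partner, by 0.51 (SE 0.14) in 1 of 4 probes, and the acetyltransferase KAT2B by 0.51 (SE 0.17). The kinase JAK1, which relays interferon signals, was lower by up to 0.42 (SE 0.12) in 2 of 7 probes, NFYA of the NF-Y factor by 0.41 (SE 0.14) in 1 of 2 and the coactivator CREBBP by 0.39 (SE 0.14) in 1 of 2. RFXANK and RFX5 were near 0 on chip 1 (−0.08 and 0.04) and highest on chip 3 (1.63 and 1.18), as CIITA-p1 was. With array brightness as a covariate, 0 of the 68 probes passed, and RFXANK was at −0.03.

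In peptide loading and traffic, DD pigs were higher in 13 and lower in 4 of 65 probes for 21 genes (26.2%, near the 21.7% of all probes). CD9 with 6 and CD82 with 4 made up most of the 13. With array brightness as a covariate 6 of the 65 passed, 1 probe of RAB7A and 5 probes of CD9, beside 2.31% of all probes. The tetraspanin CD82 was higher by up to 1.12 (SE 0.24, limma adjusted p = 0.00423), and the tetraspanin CD9 by up to 0.70 (SE 0.12, limma adjusted p = 0.000882). All 4 CD82 probes and 6 of 8 CD9 probes passed, and CD9 is also abundant in platelets. The late endosome GTPase RAB7A was lower by 0.98 (SE 0.14, limma adjusted p = 0.000101) in 1 probe. Its other probe was lower by 0.29 (SE 0.10, limma adjusted p = 0.0409), and by 0.12 with brightness as a covariate (limma adjusted p = 0.823). The protease inhibitor CST3 was lower by 0.94 (SE 0.26) and the tetraspanin CD63 by 0.47 (SE 0.11) in 1 of 2 probes. The adaptor subunit AP1B1 passed in 1 of 7 probes, at 0.85 (SE 0.27), while the other 6 lay between −0.39 and −0.03, and the probe that passed was at −0.03 with brightness as a covariate. Without the 4 arrays with low upstream signal, the RAB7A probe with the larger difference (−0.89, limma adjusted p = 0.00404) and CD9 (0.73, limma adjusted p = 0.0263) passed. The probes named for CD82, CST3, CD63 and AP1B1 did not.

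Among receptors and costimulators that class II bearing cells meet, 4 of 29 probes were higher and 2 lower (20.7%, about the 21.7% of all probes). LAG3, an inhibitory receptor that binds class II, exceeded the LW level by 1.21 (SE 0.27, limma adjusted p = 0.00538), and by chip by 1.31, 0.77 and 1.68. The ligand CD274 was higher by 1.10 (SE 0.35) in 1 of 2 probes and PDCD1LG2, its relative, by 0.58 (SE 0.20) in 1 of 5. The costimulator CD80 was lower by 0.70 (SE 0.15, limma adjusted p = 0.0042) in 1 of 2 probes. CD4 is the receptor on helper T cells that binds class II. Of its 3 probes, 1 was lower by 0.62 (SE 0.20, limma adjusted p = 0.0332) and the others differed by −0.49 and −0.38 without passing. The CD4 probe that passed was well above background on only 4 DD and 9 LW arrays. With array brightness as a covariate 2 of the 29 probes passed, LAG3 (1.37, limma adjusted p = 0.0478) among them, beside 2.31% of all probes. CD274, PDCD1LG2, CD80 and CD4 did not pass in that fit. Of these named genes, LAG3 also passed without the 4 arrays with low upstream signal (1.47, limma adjusted p = 0.0133).

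The cells that carry class II were followed by their markers, whose shares of called probes stand beside 21.7% of all probes. Of 21 B cell probes, DD pigs were higher in 2 and lower in 0 (9.52%), and the median was 0.14, or 0.55 with array brightness as a covariate, when 1 of the 21 passed. They belonged to VPREB3, a chaperone of early B cells, at 0.81 (SE 0.22, limma adjusted p = 0.0175) and to the transcription factor PAX5 at 0.61 (SE 0.15, limma adjusted p = 0.0108). With array brightness as a covariate VPREB3 was at 1.37 (limma adjusted p = 0.00188) and PAX5 at 0.14 (limma adjusted p = 0.779). The defining markers CD79A, with 0.05 and 0.09 in its probes, and MS4A1, with 0.30, did not pass. The mean log2 value of the B cell list lay between 8.06 and 9.42 in DD pigs and between 8.06 and 9.46 in LW pigs. Of 40 monocyte probes, 5 were higher and 4 lower (22.5%, about the share of all probes), and 1 passed with array brightness as a covariate. CD36, a fatty acid translocase, rose by up to 1.30 (SE 0.23, limma adjusted p = 0.0011) in 4 of 5 probes and SIRPA, an inhibitory receptor of myeloid cells, by 0.55 (SE 0.18) in 1 of 4 probes, whereas the scavenger receptor CD163 fell by up to 1.18 (SE 0.21, limma adjusted p = 0.0011) in 4 of 6. The 3 probes of CD14 differed by 0.10 to 0.17 without passing. Of 15 dendritic cell probes 1 passed (6.67%), that of the chemokine receptor XCR1, at 1.02 (SE 0.27), which was 0.05 on chip 1 and 1.70 on chip 3. Markers of T cells, which in the pig can carry class II once activated, were higher in 0 and lower in 10 of 33 probes (30.3%), with a median of −0.43. CD8A fell by 1.14 (SE 0.26, limma adjusted p = 0.00637) in 1 of 3 probes, CD3G by up to 0.86 (SE 0.21) in both and GATA3 by up to 0.83 (SE 0.16) in 2 of 3, while the probes of CD3E differed by −0.47 and −0.29 without passing. With array brightness as a covariate, 0 of the 33 T cell probes passed and their median was −0.18. The mean log2 value of the T cell list lay between 8.15 and 9.48 in DD pigs and between 8.53 and 9.61 in LW pigs, and its part in the class II values was not tested. Of the named marker genes of the 4 cell types, CD163 also passed without the 4 arrays with low upstream signal (−1.04, limma adjusted p = 0.0231).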

How the data were processed

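Whole blood RNA of 21 pigs was labelled with Cy3 and read on a custom Agilent array of pig probes, 1 array per pig. The authors processed 24 animals, removed the arrays that their quality assessment marked as outliers, and deposited 21 arrays. The authors deposited the intensity of each spot, extracted with Agilent Feature Extraction 10.7.3.1 per the labels, with flags for signals well above background. The deposited log2 values are the matrix the authors made by normexp background correction and quantile normalization, and all main values come from it. A log2 matrix rebuilt from the scanner intensities correlated with it at r = 0.998 to 0.999 across probes on each array. No probe was saturated.

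Member probes were found by symbol or description and kept apart because alleles can differ under a probe. Naming by symbol or accession gave a member name to 0 of the other probes. The accessions of the member probes themselves were not checked. The members and the gene lists were chosen with earlier results of these data known. The 25% of probes with the lowest mean were removed. Breed and chip were fitted in limma with the sow as a random block (duplicateCorrelation, consensus correlation −0.11), with eBayes and Benjamini-Hochberg adjustment over all 45228 probes and a threshold of 0.05. Because this correlation is below 0, the block narrows the standard errors of the breed difference, and the fit without it is an alternative. The same model was fitted to each probe minus the mean of the other kept probes of its gene, and to absolute residuals scaled for leverage. Lists are described by counts and medians. Named list genes are those with a called probe and the 3 largest differences in each direction, the defining markers, and the 10 gene names most correlated with CD74. The result of 1 marker is not reported here. Leave-one-out fits held the consensus correlation fixed. Precision is limited by the number of arrays, and p-values measure the spread between these pigs.

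The alternatives were scanner signals with offsets of 0 and 50, scaling to the 75th percentile, no filter, a filter on probes well above background on at least 10 arrays, a model without the sow, means of each litter, a model without the chip, the chips left out in turn or taken alone, array brightness as a covariate, eBayes with trend and robust fitting, squared residuals, and each pig left out. The 4 arrays with low upstream signal were left out as a choice made after the data were seen. The scripts were tested on simulated data. Models were run in limma 3.58.1 (statmod 1.5.0) under R 4.3.3, files were prepared with pandas 2.3.3 and numpy 2.4.6 under Python 3.11.15, and figures were drawn with matplotlib 3.10.9. Exon positions, promoters and proteins were not analysed here.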

Additional observations from a re-analysis of the deposited data

Results flagged for a closer look

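In 4 of 55 sets of DD values, 1 pig lay far from the other 9, where chance alone marks about 1 set in 20. SLA-DOA-p1 read 8.08 in DD_06, while the next lowest DD pig was at 8.69 and the highest at 9.32. SLA-DOB-p2 read 5.05 in DD_16, while the other DD pigs lay between 5.62 and 6.21. The difference SLA-DQA1-p2 minus SLA-DQA1-p1 was −1.20 in DD_01 and between 0.10 and 0.75 in the other DD pigs. The difference between the most upstream and the most downstream SLA-DRB1 probe was −4.21 in DD_16, while the other DD pigs lay between −2.61 and −1.36. DD_16 is among the 4 arrays with low upstream signal. The causes were not tested.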

How the results depend on the processing

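Of 45 member probes, 2 differed between breeds, and the count was 0 with no chip term, without chip 3, with array brightness as a covariate and without the 4 arrays with low upstream signal. It was 1 without chip 1, 0 within chip 1, 0 within chip 2 and 1 within chip 3, where the sow was not in the model. With 1 pig left out it ran from 1 to 3. Of all 38 alternatives, 28 kept the count within 1.5 times of 2, and in all of them CIITA-p1 stayed above and SLA-DQB1-p4 below 0. CIITA-p1 passed under 32 and SLA-DQB1-p4 under 27 of the 38. The latter lost its call with the 75th percentile scaling (−0.51, limma adjusted p = 0.0806), and both passed with no sow block and with litter means. The share of all probes that passed was 21.7%, and 15.2% with no sow block, 6.01% with no chip term, 1.43% without chip 3, 0.0995% within chip 1, 0.137% within chip 2, 2.31% with array brightness as a covariate and 2.71% without the 4 arrays. Fewer arrays enter some of these fits, and otherwise the cause was not tested.

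No member probe departed from the others of its gene in the limma fit, with 5 of 44 at an unadjusted p under 0.05, beside 3433 of all 14585. The count was 2 without chip 1, and ran from 0 to 2 with 1 pig left out. Where it was 2, these were the SLA-DOA pair, a single gap counted for both probes. The count of probes whose spread differed was 0 in all 27 alternatives, with 0 to 13 at an unadjusted p under 0.05, which is not set against all probes here. Of the 271 list probes, 52 passed, and the count was 26 with no chip term, 2 without chip 3, 0 within chip 1, 0 within chip 2, 10 with array brightness as a covariate and 10 without the 4 arrays. With 1 pig left out it ran from 37 to 64. RFXANK turned to −0.084 within chip 1 and −0.028 with array brightness, AP1B1 to −0.033 with array brightness, SIRPA to −0.095 within chip 1 and CREBBP to 0.024 within chip 1. No paired analysis was possible because the replicate numbers are those of single pigs and are not shared between the breeds. The signal over background limits SLA-DRA-p10, SLA-DRB1-p5, SLA-DQA1-p10, SLA-DQB1-p6 and SLA-DOB-p4, which were well above background on at most 5 of 21 arrays.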
